A study of Mus musculus with 33 samples.

Results

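The genes described here are Fxyd4, Ces1d, Plekhs1, Cbr2, Ovgp1, Fermt1, Dsg2 and Inmt, 8 of the 10412 genes with a detected and named probe on mouse bead arrays of uterine tissue. They were chosen by their probe intensities, for large falls during pregnancy against non-pregnant uterus and with no numeric threshold stated, so their differences from non-pregnant uterus are given as a description, with no test and no p-value. The 8 genes have 13 of the 45281 probes in the intensity table, and all 13 were detected on at least 4 arrays. At day 12, Fxyd4, Ces1d and Plekhs1 were detected on 0 of 5 arrays, Ovgp1 on 2 and Cbr2 on 4, while Fermt1 was detected on all 5 at a lower level than in non-pregnant uterus. Dsg2 was back within its non-pregnant range at day 12, and Inmt was within its own on 5 of 6 arrays at day 6 before it went down once more.

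The arrays hold total RNA from C57BL/6 mice, an inbred laboratory strain, aged 8 weeks. The baseline group is uterus of non-pregnant mice (6 arrays). The 6 pregnant groups, called uterine microenvironment tissue in the labels, were taken on day 4 (4 arrays), 6 (6 arrays), 8, 10 and 11 (4 arrays each) and 12 (5 arrays), counted from fertilization. The labels name no treatment or altered gene in any group, no oestrous cycle stage for the non-pregnant mice, and no dissection of epithelium, decidua or placenta. They do not say that arrays of a group come from separate animals, so each p-value measures the spread between these samples, which may be technical.

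As background, the non-pregnant mouse uterus is lined by a simple epithelium whose secretory genes follow oestrogen and progesterone. After the embryo attaches, the lining epithelium around it is lost, the stroma turns into decidua, and placenta and embryo later make up much of the tissue at an implantation site. Fxyd4 belongs to a family of small membrane proteins that tune the sodium pump. Ces1d, Cbr2 and Inmt are enzymes that hydrolyse esters and lipids, reduce carbonyl groups and methylate small amines. Ovgp1 is the secreted glycoprotein for which the oviduct is known. Fermt1 (kindlin-1) activates integrins, Dsg2 is a cadherin of desmosomes, and Plekhs1 carries a pleckstrin homology domain.

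Promoter windows, 250 bases before to 50 bases after the start of a gene, were searched in RefSeq sequence (GRCm38.p6) for 6 of the 8 genes. Ces1d had no entry in the set of windows used, and the window of Dsg2 was left out of the search. Of the 6, 4 are shown because these genes parted ways between day 4 and day 6: Fxyd4, Cbr2 and Ovgp1 fell and Inmt rose. The window of Fxyd4 is chr6:117937286-117937585 on the minus strand, that of Cbr2 is chr11:120731972-120732271 on the minus strand, that of Ovgp1 is chr3:105973552-105973851 on the plus strand and that of Inmt is chr6:55174941-55175240 on the minus strand. Each is written 5′ to 3′ on the gene's strand, and capitals mark matches to the motifs described after the sequences.
Fxyd4: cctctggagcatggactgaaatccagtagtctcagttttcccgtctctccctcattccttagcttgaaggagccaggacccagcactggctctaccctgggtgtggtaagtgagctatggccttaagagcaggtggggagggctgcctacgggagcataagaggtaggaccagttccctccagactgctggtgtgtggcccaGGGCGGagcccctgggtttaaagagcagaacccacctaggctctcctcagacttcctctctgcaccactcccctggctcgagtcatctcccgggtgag
Cbr2: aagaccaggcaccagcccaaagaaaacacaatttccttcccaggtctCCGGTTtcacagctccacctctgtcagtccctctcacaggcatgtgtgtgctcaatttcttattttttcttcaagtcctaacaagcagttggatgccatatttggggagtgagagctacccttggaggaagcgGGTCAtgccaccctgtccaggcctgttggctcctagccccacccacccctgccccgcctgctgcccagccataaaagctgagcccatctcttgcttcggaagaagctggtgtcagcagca
Ovgp1: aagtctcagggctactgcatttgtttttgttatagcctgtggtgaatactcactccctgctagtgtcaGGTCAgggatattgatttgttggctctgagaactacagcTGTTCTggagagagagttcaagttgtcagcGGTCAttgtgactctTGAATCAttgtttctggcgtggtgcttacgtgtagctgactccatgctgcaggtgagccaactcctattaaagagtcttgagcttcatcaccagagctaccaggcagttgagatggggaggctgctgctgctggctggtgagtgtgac
Inmt: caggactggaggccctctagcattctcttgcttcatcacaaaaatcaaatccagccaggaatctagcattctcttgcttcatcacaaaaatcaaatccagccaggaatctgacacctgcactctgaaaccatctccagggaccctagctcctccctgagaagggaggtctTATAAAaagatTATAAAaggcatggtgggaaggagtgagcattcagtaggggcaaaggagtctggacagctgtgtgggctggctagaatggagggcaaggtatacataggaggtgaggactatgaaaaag

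Each motif was searched on both strands, and shares are of all 32851 windows of the same length. The oestrogen response element arm TGACC was found in 2 of the 6 windows, Ovgp1 (182 and 113 bases before the start) and Cbr2 (70 bases before), and 40.5% of all windows hold it. The full element, a pair of such arms facing each other across 3 bases, which contains the arm, was found in 0 of the 6 windows and in 0.07% of all. AGAACA, an arm of the element of progesterone and glucocorticoid receptors, was found in Ovgp1 (143 bases before; 19% of all windows), and so was the AP-1 motif TGANTCA (98 bases before; 7.81%). The grainyhead-like motif AACCGG was found in Cbr2 (203 bases before; 6.83%), and the TATA box TATAAA stood at 2 places in Inmt (80 and 69 bases before; 13.6%). The GC box GGGCGG was found in Fxyd4 (48 bases before) and Fermt1 (61 bases before; 35.7%) and CCAAT in Plekhs1 (104 bases before; 37.4%). No matches overlap each other in the windows shown. A match is a description of letters and not a site of binding.

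A probe counted as detected on an array when its deposited detection p-value was under 0.01. Between 15040 and 18692 probes were detected on 31 of the 33 arrays, while non-pregnant replicate 4 had 13097 and day 6 replicate 4 had 13149. Levels are log2 normalized intensities of the gene's probe with the highest mean, and levels of different probes are not compared. A gene "rose" or "fell" between 2 groups when limma's p-value, adjusted over all 10412 genes, was under 0.05 and the means were at least 2-fold apart. The p-value rests on a spread pooled over all groups, not only on that of the groups compared. On a list of 15 oestrogen target genes, of which 10 were measured, 3 arrays stood apart from their own groups. The log2 of the summed level was 10.72 on non-pregnant replicate 6 and 15.98 to 16.73 on the other non-pregnant arrays, 11.51 on day 4 replicate 1 and 16.44 to 16.78 on the other day 4 arrays, and 14.92 on day 6 replicate 5 and 9.89 to 11.10 on the other day 6 arrays. Steps between days, correlations and day 12 folds that these 3 arrays move by over 1.5 times are also given without them.

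**Figure D1:**
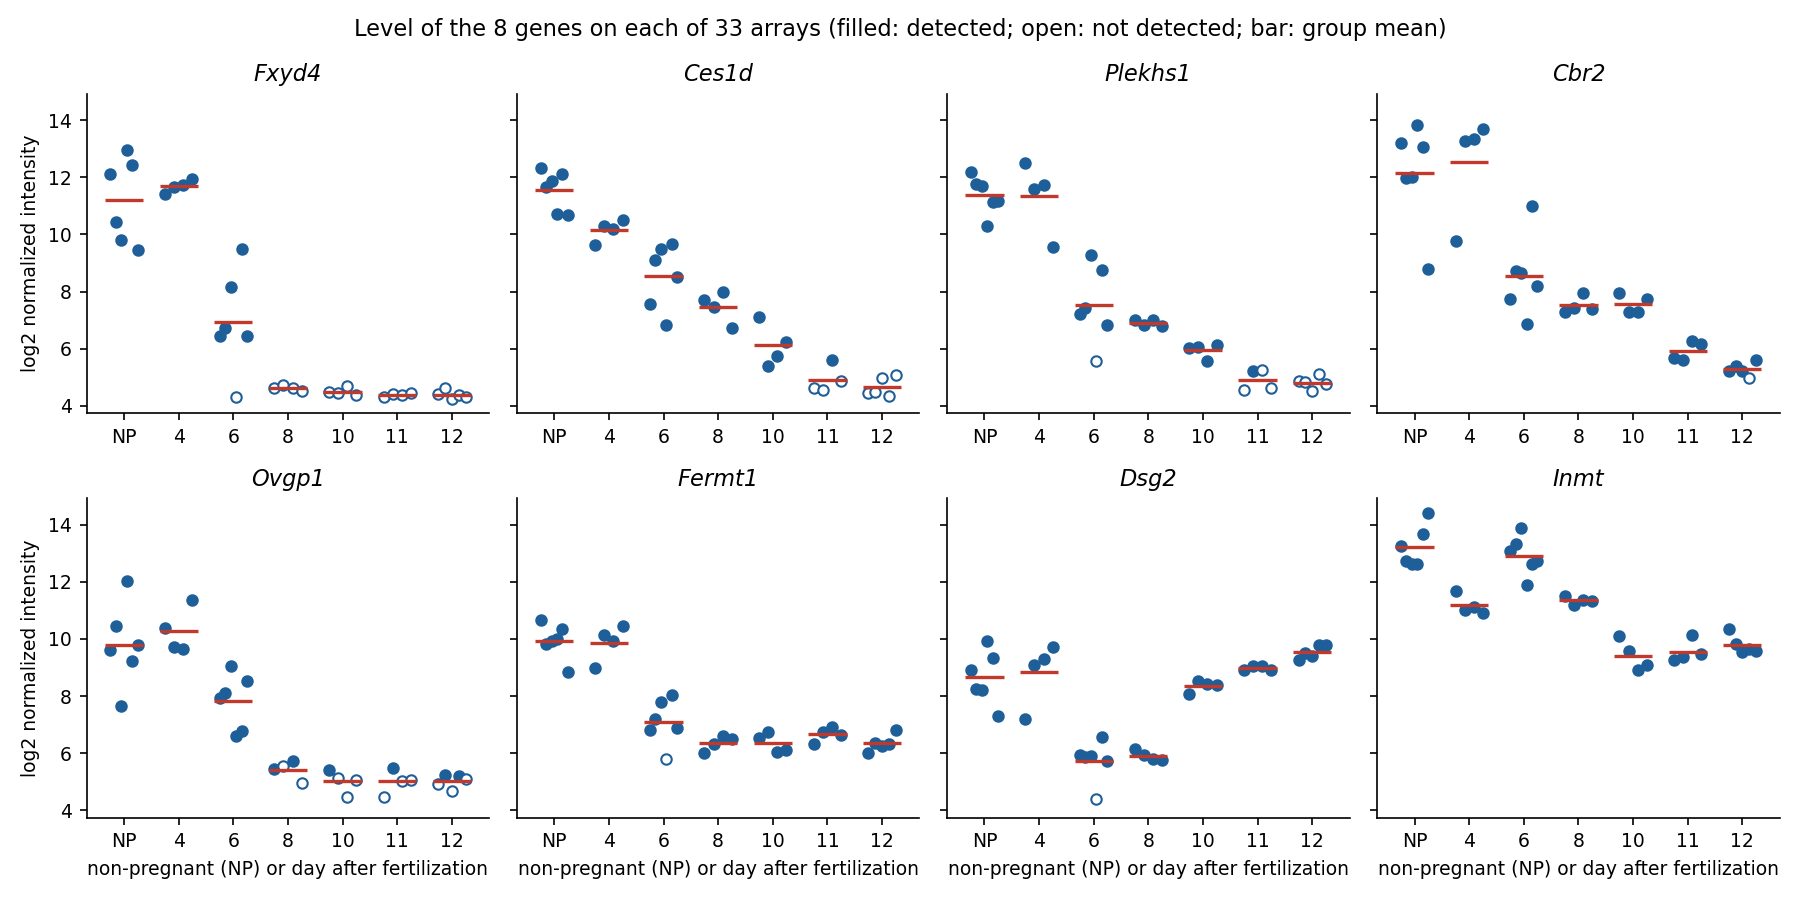
Level of each gene (log2 normalized intensity) on every array, by group, from non-pregnant (NP) through days 4 to 12. Filled points are arrays that detected the probe, open points those that did not, and bars are group means. Fxyd4, Ces1d and Plekhs1 were detected on 0 of the 5 day 12 arrays, while Dsg2 returned to 9.26 to 9.80 at day 12 and Inmt dipped at day 4.

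Fxyd4, known from kidney collecting duct and colon, was abundant before implantation and undetected from day 8. On the 6 non-pregnant arrays it had a lowest level of 9.47, a median of 11.27 and a highest level of 12.96, and the day 4 arrays had 11.40, 11.66, 11.72 and 11.94. The day 6 arrays had a lowest level of 4.32, which was not detected, a median of 6.59 and a highest level of 9.50. The 4 day 4 arrays lay inside the non-pregnant range, and at day 6 only replicate 5, at 9.50, reached it. No array of day 8, 10, 11 or 12 detected Fxyd4, with values of 4.25 to 4.72 at the level of background. Fxyd4 fell at day 6 against day 4, by a log2 difference of -4.74 (SE 0.61, adjusted p = 3.98e-07), and the arrays of both days did not overlap. Without the 3 arrays that stood apart this difference was -5.35. In whole tissue, here and for each later result, fewer cells of a type and less RNA per cell cannot be told apart. It fell again at day 8 against day 6 (adjusted p = 0.00608), and since no day 8 array detected it, its level there was at least 3.06-fold lower. The call at day 8 was lost without background correction (-1.03, adjusted p = 0.118) and with the authors' series matrix values (-1.04, adjusted p = 0.112). With the same kind of bound it was at least 58.99-fold lower at day 8, 60.7-fold at day 10, 62.5-fold at day 11 and 66.5-fold at day 12 than in non-pregnant uterus. Each bound sets the mean of the brighter group against the lowest detected signal of each array of the dimmer group.

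Ces1d, a carboxylesterase of the endoplasmic reticulum that hydrolyses stored lipids in liver and fat, went down step by step over the whole series. Its non-pregnant arrays had a lowest level of 10.68, a median of 11.76 and a highest level of 12.32, and the day 4 arrays had 9.63, 10.28, 10.20 and 10.51. At day 6 the lowest, median and highest levels were 6.82, 8.82 and 9.67, and the day 8 arrays had 7.71, 7.45, 7.98 and 6.74. All 4 day 4 arrays lay below all 6 non-pregnant arrays, which was otherwise true of only Inmt among these genes, while neighbouring pregnant days overlapped. The day 10 arrays had 7.11, 5.40, 5.73 and 6.22, the day 11 arrays 4.64, 4.55, 5.60 and 4.88, of which 1 was detected, and the day 12 arrays 4.46, 4.48, 4.96, 4.35 and 5.06, of which none was. Ces1d fell at day 6 against day 4 (-1.62, SE 0.43, adjusted p = 0.00446) and at day 10 against day 8 (-1.35, SE 0.47, adjusted p = 0.0407). The second of these calls was lost under 12 of the 46 settings tried, with adjusted p up to 0.207, among them each setting without day 8 replicate 1, 2 or 3 or day 10 replicate 2, 3 or 4. Day 8 against day 6 gave -1.06 (adjusted p = 0.0757) and day 11 against day 10 gave -1.20 (adjusted p = 0.0840). Without day 6 replicate 4, an array with few detected probes, these values were -1.41 (adjusted p = 0.00847) and -1.20 (adjusted p = 0.0376). At day 12 Ces1d was at least 85.0-fold lower than in non-pregnant uterus.

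Cbr2, the mouse carbonyl reductase known from lung and fat cells, was high on most non-pregnant and day 4 arrays and low on 1 array of each group. In non-pregnant uterus it had 13.19, 11.98, 12.03, 13.82, 13.06 and 8.78, and the day 4 arrays 9.78, 13.27, 13.36 and 13.68. Non-pregnant replicate 6 and day 4 replicate 1 stood far below the others. The day 6 arrays had a lowest level of 6.88, a median of 8.41 and a highest level of 10.99, and the last came from replicate 5. The day 8 arrays had 7.29, 7.41, 7.96 and 7.39, the day 10 arrays 7.96, 7.29, 7.29 and 7.73, the day 11 arrays 5.67, 5.62, 6.28 and 6.17, and the day 12 arrays 5.22, 5.41, 5.23, 4.98 and 5.60. Cbr2 fell at day 6 against day 4 (-3.99, SE 0.71, adjusted p = 7.16e-05), and without the 3 arrays that stood apart that difference was -5.40. All day 11 arrays lay below all day 10 arrays, with a difference of -1.63 (SE 0.78, adjusted p = 0.174). The same difference had an adjusted p of 0.000956 without the 3 arrays, whose spread enters the pooled error of the gene. At day 12 Cbr2 was 116-fold lower than in non-pregnant uterus by the group means, and 185-fold lower without non-pregnant replicate 6. It was detected on 4 of 5 day 12 arrays.

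Inmt, which methylates tryptamine and related amines in tissues such as lung, was low at day 4, high at day 6 and lower again from day 8. Its non-pregnant levels had a lowest value of 12.61, a median of 12.995 and a highest level of 14.42, and the day 4 arrays had 11.69, 11.01, 11.14 and 10.92. The day 6 arrays had a lowest level of 11.88, a median of 12.90 and a highest level of 13.89. Every day 4 array was thus below every non-pregnant and every day 6 array. Later arrays had 11.51, 11.20, 11.37 and 11.33 at day 8, 10.12, 9.57, 8.91 and 9.08 at day 10, 9.25, 9.38, 10.13 and 9.46 at day 11, and 10.34, 9.81, 9.55, 9.66 and 9.58 at day 12. Inmt rose at day 6 against day 4 (1.73, SE 0.32, adjusted p = 0.000109), fell at day 8 against day 6 (-1.57, SE 0.32, adjusted p = 0.000528) and fell at day 10 against day 8 (-1.93, SE 0.35, adjusted p = 0.000108). From day 10 to day 12 its arrays overlapped and it did not pass the test. All 33 arrays detected it, and at day 12 it was 10.8-fold lower than in non-pregnant uterus.

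Adipose markers are given beside Inmt, whose levels were lower at day 4 than at day 6. Of 8 such genes 4 were measured, and the log2 of their summed level was 8.37 to 12.55 in non-pregnant uterus, 6.73 to 9.38 at day 4, 7.49 to 11.13 at day 6, 7.14 to 9.70 at day 8, 6.93 to 9.33 at day 10, 6.63 to 7.73 at day 11 and 6.63 to 7.03 at day 12. Non-pregnant replicate 6 had the highest non-pregnant value of both Inmt (14.42) and adipose markers (12.55). It was also highest there for gland markers (14.75) and stroma fibroblast markers (15.40). Within day 4 the extremes were opposite. Replicate 1 had the highest Inmt (11.69) and the lowest adipose markers (6.73), and replicate 4 the lowest Inmt (10.92) and the highest adipose markers (9.38). Adipoq, the fat cell hormone adiponectin, was detected on 6 of 6 non-pregnant, 3 of 4 day 4, 5 of 6 day 6, 4 of 4 day 8, 4 of 4 day 10, 1 of 4 day 11 and 1 of 5 day 12 arrays. The part of these markers in the Inmt values was not tested.

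Ovgp1, oviductin, a chitinase-like glycoprotein without known enzyme activity, left detection on 2 of 4 arrays at day 8 and on most arrays from day 10. Its non-pregnant arrays had a lowest level of 7.65, a median of 9.70 and a highest level of 12.03, and the day 4 arrays had 10.37, 9.72, 9.65 and 11.35. At day 6 the lowest, median and highest levels were 6.59, 8.02 and 9.07, which overlapped the non-pregnant range but not day 4. The day 8 arrays had 5.45, 5.55, 5.72 and 4.96, and 2 of them were detected. Detection was limited to 1 of 4 arrays at day 10 and at day 11 and to 2 of 5 at day 12, with levels of 4.47 to 5.49. Ovgp1 fell at day 6 against day 4 (-2.44, SE 0.51, adjusted p = 0.000477) and by a similar size at day 8 against day 6 (-2.41, SE 0.51, adjusted p = 0.000763). It was 20.8-fold lower at day 8 and 27.2-fold lower at day 12 than in non-pregnant uterus. Of 11 oviduct and ciliated cell markers 4 were measured, with summed levels of 8.15 to 9.91 in non-pregnant uterus, 9.05 to 9.63 at day 4, 8.21 to 9.04 at day 6 and 7.41 to 7.93 at day 12. Non-pregnant replicate 4 had the highest non-pregnant value of both Ovgp1 (12.03) and these markers (9.91). It was also highest there for epithelium markers (14.32), smooth muscle markers (16.63), Fxyd4 (12.96), Cbr2 (13.82) and Dsg2 (9.93). It had the fewest detected probes of all arrays (13097). Non-pregnant replicate 3 had the lowest Ovgp1 of its group (7.65) beside a marker level of 9.10, exceeded there only by replicate 4. Tekt1, of ciliary axonemes, was detected on 0 of 6 non-pregnant and 3 of 4 day 4 arrays, on no array of day 6, 8 or 10, and on 3 of 4 day 11 and 4 of 5 day 12 arrays, and Pax8, a Müllerian duct transcription factor, on 6 of 6 non-pregnant, 4 of 4 day 4 and 0 of 6 day 6 arrays. The part of these markers in the Ovgp1 values was not tested.

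Fermt1, the epithelial kindlin, had a single drop and then a low plateau. Before pregnancy it had a lowest level of 8.83, a median of 9.97 and a highest level of 10.66, and the day 4 arrays had 8.98, 10.13, 9.92 and 10.44. The day 6 arrays had a lowest level of 5.79, which was not detected, a median of 7.05 and a highest level of 8.05. All day 6 arrays lay below all day 4 and all non-pregnant arrays. The level was 6.02 to 6.62 at day 8, 6.04 to 6.75 at day 10, 6.32 to 6.93 at day 11 and 6.00 to 6.82 at day 12, with every array of these days detected. Fermt1 fell at day 6 against day 4 (-2.78, SE 0.33, adjusted p = 8.73e-08), and its later differences ran between -0.72 and 0.31 and did not pass the test. The day 12 mean was 12.0-fold lower than that of non-pregnant uterus.

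Dsg2, the desmosomal cadherin of simple epithelia, fell and came back. Its non-pregnant arrays had a lowest level of 7.32, a median of 8.57 and a highest level of 9.93, and the day 4 arrays had 7.20, 9.08, 9.31 and 9.72. The day 6 arrays had a lowest level of 4.40, which was not detected, a median of 5.88 and a highest level of 6.58, and the day 8 arrays had 6.16, 5.95, 5.78 and 5.76. All arrays of these days lay below all non-pregnant and day 4 arrays. The day 10 arrays had 8.07, 8.51, 8.42 and 8.39, the day 11 arrays 8.92, 9.05, 9.06 and 8.92, and the day 12 arrays 9.26, 9.51, 9.40, 9.77 and 9.80. Dsg2 fell at day 6 against day 4 (-3.09, SE 0.40, adjusted p = 3.8e-07; -3.80 without the 3 arrays that stood apart) and rose at day 10 against day 8 (2.43, SE 0.43, adjusted p = 8.71e-05). Each of the days 10, 11 and 12 lay above the day before it without overlap. The last 2 steps, of 0.64 (adjusted p = 0.362) and 0.56 (adjusted p = 0.574), were under the 2-fold minimum and so could not pass. Their p-values rest on the pooled spread, and the standard deviation of Dsg2 was 1.12 at day 4 and 0.08 at day 11. Its mean at day 12 differed by 0.89 from that of non-pregnant uterus, within whose range all day 12 arrays lay.

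Conceptus markers were first detected at day 8, and Dsg2 rose at day 10. Of 10 genes of trophoblast, yolk sac and embryonic blood 7 were measured; 0 were detected on any non-pregnant, day 4 or day 6 array, 2 to 4 on the day 8 arrays and all 7 on each array of days 10, 11 and 12. Their summed level was 7.21 to 7.41 in non-pregnant uterus, 8.65 to 9.74 at day 8, 16.01 to 16.28 at day 10, 16.51 to 16.58 at day 11 and 16.45 to 16.71 at day 12. Epithelium markers, 10 of 13 measured, had a course close to that of Dsg2, with 12.07 to 14.32 in non-pregnant uterus, 12.10 to 14.20 at day 4, 10.43 to 11.83 at day 6, 10.38 to 10.75 at day 8, 12.75 to 13.07 at day 10, 13.50 to 13.61 at day 11 and 13.47 to 13.75 at day 12. The summed level of these markers was also lower at day 6, where Fxyd4, Cbr2, Plekhs1 and Fermt1 fell. It was higher again from day 10, when those 4 genes were not. A sum follows its brightest genes, such as Krt8 (12.62 at day 12). Cldn3 alone of the list averaged lower at day 10 (8.71) than at day 8 (8.97). At day 12 Krt7, Krt8 and Krt18 averaged above their non-pregnant levels, and Krt19, Cdh1, Cldn3, Cldn4, Cldn7, Elf3 and Grhl2 below theirs. Gland markers, 8 of 10 measured, had summed levels of 12.63 to 13.05 at day 4, 15.08 to 15.81 at day 6 and 14.45 to 14.79 at day 8. Of these, Prss28, Prss29 and Spink1 averaged higher at day 6 than at day 4, and the other measured gland genes averaged lower. The part of any of these marker lists in the values of the 8 genes was not tested.

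Plekhs1, a pleckstrin homology domain protein, kept its level through day 4 and then, on its brighter probe, went down over the remaining days. Non-pregnant arrays had a lowest level of 10.29, a median of 11.44 and a highest level of 12.18, and the day 4 arrays had 12.50, 11.59, 11.73 and 9.57. At day 6 the lowest, median and highest levels were 5.56, which was not detected, 7.33 and 9.29. The day 6 arrays lay below all day 4 and non-pregnant arrays, although day 4 replicate 4, at 9.57, came within reach of them. The day 8 arrays had 7.01, 6.83, 7.01 and 6.78, the day 10 arrays 6.01, 6.05, 5.56 and 6.12, the day 11 arrays 4.57, 5.23, 5.25 and 4.63, of which 1 was detected, and 0 of 5 day 12 arrays detected it. Plekhs1 fell at day 6 against day 4 (-3.83, SE 0.48, adjusted p = 2.93e-07). Without day 4 replicate 4 this difference was -4.43. Day 10 lay below day 8 (-0.97, adjusted p = 0.233) and day 11 below day 10 (-1.02, adjusted p = 0.217) without overlap of arrays, and neither step passed the test. With only the groups compared in the fit, the step from day 10 to day 11 had an adjusted p of 0.00224. At day 12 it was at least 74.7-fold lower than in non-pregnant uterus.

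**Figure D2:**
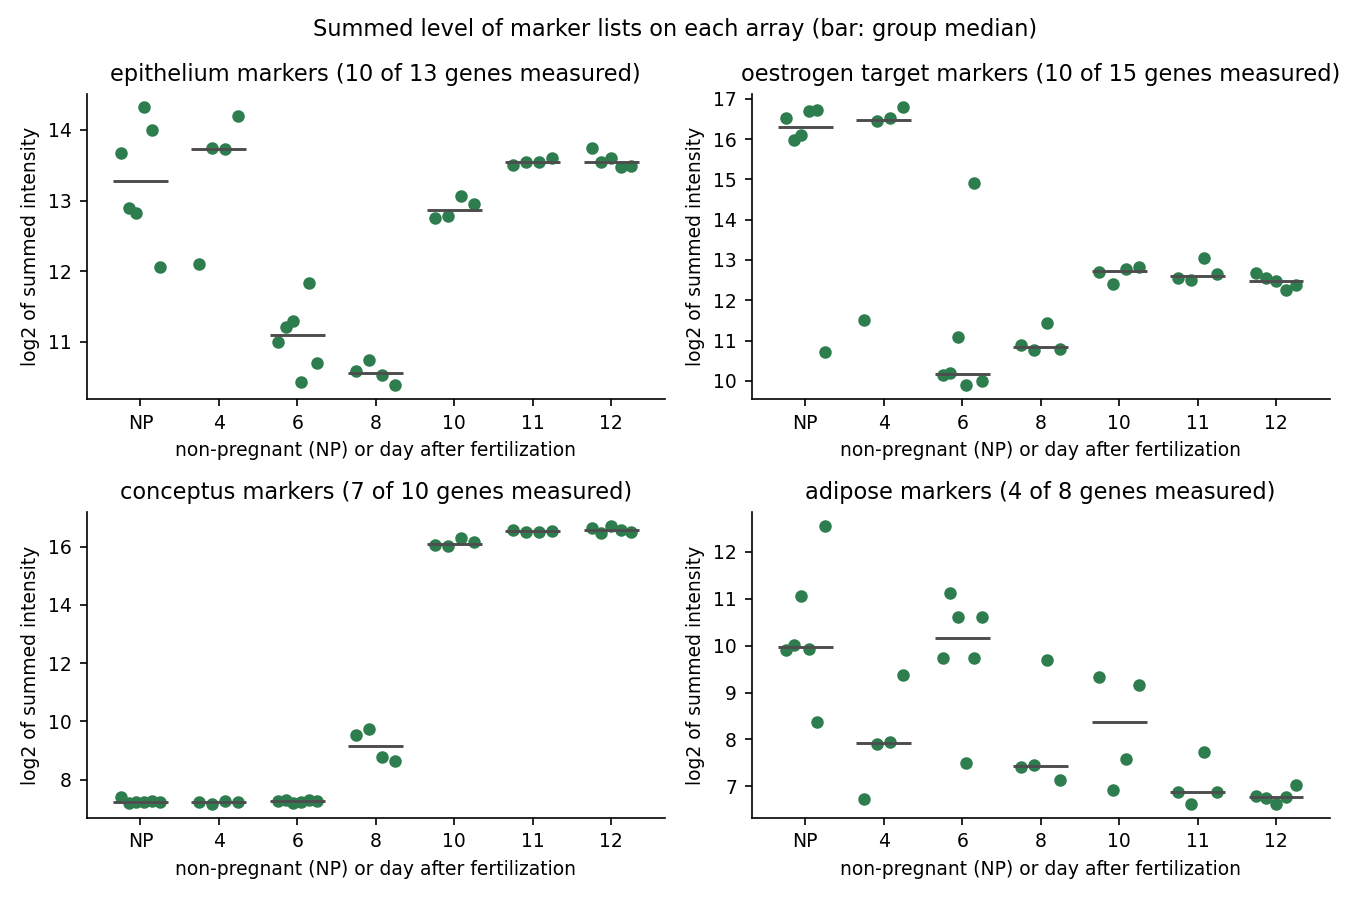
Log2 of the summed intensity of 4 marker lists on every array (points) with the group median (bar), from non-pregnant (NP) to day 12. Epithelium markers were lowest at days 6 and 8, conceptus markers stood at 16.01 or more from day 10, and single arrays stood apart on oestrogen target markers in the non-pregnant, day 4 and day 6 groups.

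Against non-pregnant uterus, the contrast that chose the genes, counts are of means at least 2-fold lower, with no test, and nothing is read from them. The 6 comparisons share the same 6 non-pregnant arrays. At day 4, 2 of the 8 genes (Ces1d and Inmt) were at least 2-fold lower, beside 1.45% of all genes. At day 6, 7 were, all but Inmt, beside 6.48% of all genes, and at day 8 all 8 were, beside 11.4%. All but Dsg2, 7 of 8, were at least 2-fold lower at day 10 (11.9% of all genes), at day 11 (13.6%) and at day 12 (14.1%). The median difference of the 8 genes from non-pregnant uterus was 0.07 at day 4, -2.97 at day 6, -4.23 at day 8, -4.68 at day 10, -5.49 at day 11 and -5.66 at day 12. The median over all genes stayed within -0.02 and 0.04, and quantile normalization keeps it small by design.

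The steps between pregnant days leave out the non-pregnant arrays, although the pregnant arrays took part in the choice of the genes. A gene chosen as low later in pregnancy, and near its non-pregnant level at day 4, had to fall somewhere after day 4. The F test and the counts of falls are therefore a description and no independent support. All 8 genes differed among the 6 pregnant groups in limma's F test, with adjusted p from 2.95e-12 (Ces1d) to 1.32e-08 (Cbr2), beside 71.8% of all genes. At day 6 against day 4, 7 of 8 fell, beside 5.61% of all genes, and Inmt alone of them rose, beside 5.23%. At day 8 against day 6, 3 fell (Fxyd4, Ovgp1 and Inmt; 2.2% of all genes) and 0 rose (3.91%). At day 10 against day 8, 2 fell (Ces1d and Inmt; 2.44% of all genes) and Dsg2 rose (5.18%). At day 11 against day 10, 0 fell (2.1% of all genes) and 0 rose (3%), and at day 12 against day 11, 0 fell (1.09%) and 0 rose (1.3%). The counts were 8, 3, 3, 1 and 0 for these 5 steps without the 3 arrays that stood apart, the added call being Cbr2 at day 11.

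**Figure D3:**
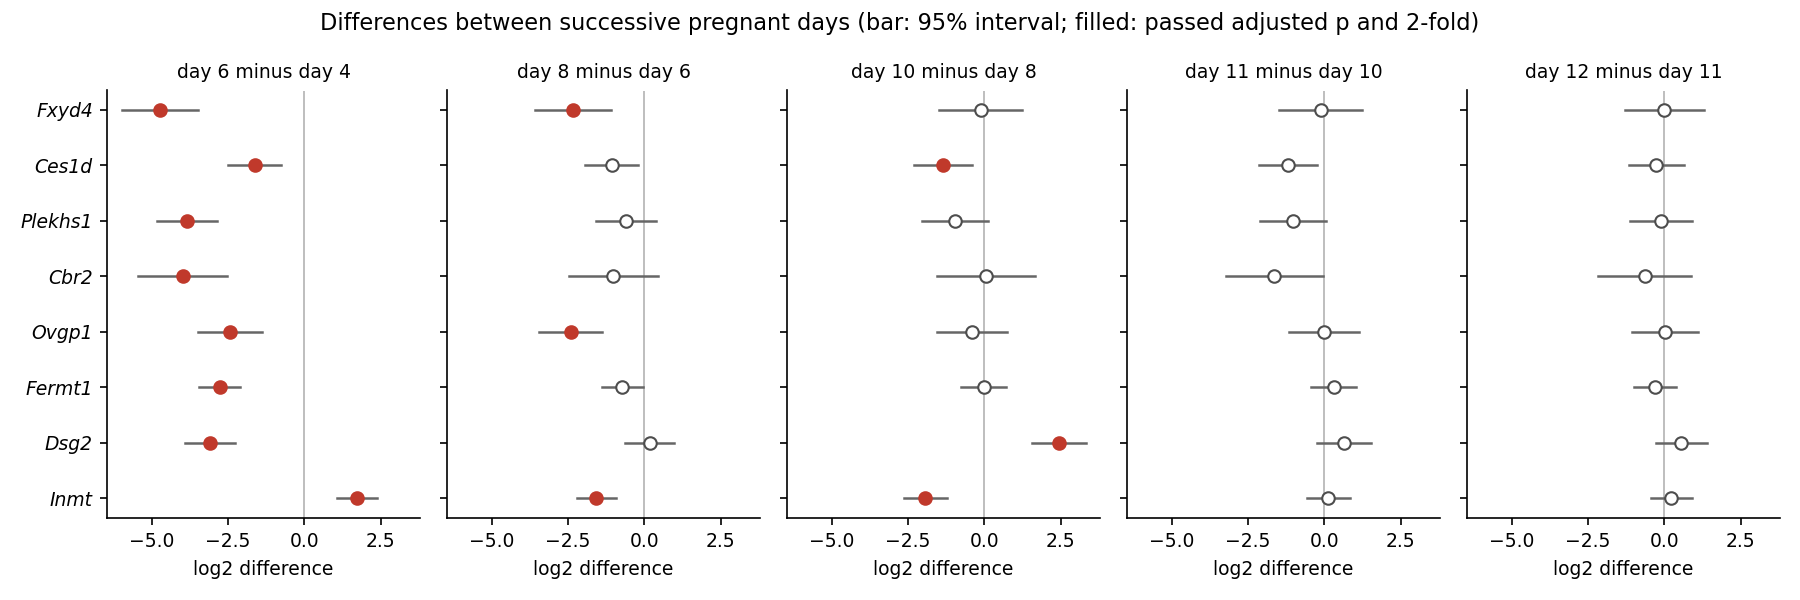
Log2 difference of each gene between successive pregnant days, later minus earlier, with its 95% interval from the fit. Filled red points passed both adjusted p under 0.05 and a 2-fold difference. In the first panel 7 genes lie to the left of 0 and Inmt, at 1.73, to the right, and in the last panel all 8 intervals cross 0.

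The median standard deviation of the 8 genes was 0.83 among non-pregnant arrays, 0.71 among day 4 arrays and 1.06 among day 6 arrays, and the median over all genes was 0.36 among non-pregnant, 0.24 among day 4 and 0.32 among day 6 arrays. It was 0.22 at day 8, 0.34 at day 10, 0.35 at day 11 and 0.23 at day 12, where the median over all genes was 0.17, 0.18, 0.18 and 0.22 in the same order. Not each of the 8 exceeded the median over all genes. Examples below it were Fxyd4 at day 4 (0.22), Plekhs1 (0.12) and Inmt (0.13) at day 8, and Dsg2 at day 11 (0.08). Fxyd4 had 0.09 at day 8, where no array detected it, so that value is the spread of background. Arrays that stood apart on oestrogen target markers were extreme for several of the genes. Non-pregnant replicate 6 was the lowest non-pregnant array for Cbr2 (8.78), Dsg2 (7.32), Fermt1 (8.83) and Fxyd4 (9.47), and the highest for Inmt (14.42). Day 4 replicate 1 was the lowest day 4 array for Cbr2 (9.78), Dsg2 (7.20), Fermt1 (8.98), Fxyd4 (11.40) and Ces1d (9.63), and the highest for Inmt (11.69) and Plekhs1 (12.50). Day 6 replicate 5 was the highest day 6 array for Cbr2 (10.99), Fxyd4 (9.50), Ces1d (9.67), Fermt1 (8.05) and Dsg2 (6.58). For Ovgp1 these arrays were not extreme in the same way: day 6 replicate 5 had 6.77, near the lowest of its group, and non-pregnant replicate 6 had 9.78, close to the non-pregnant median.

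**Figure D4:**
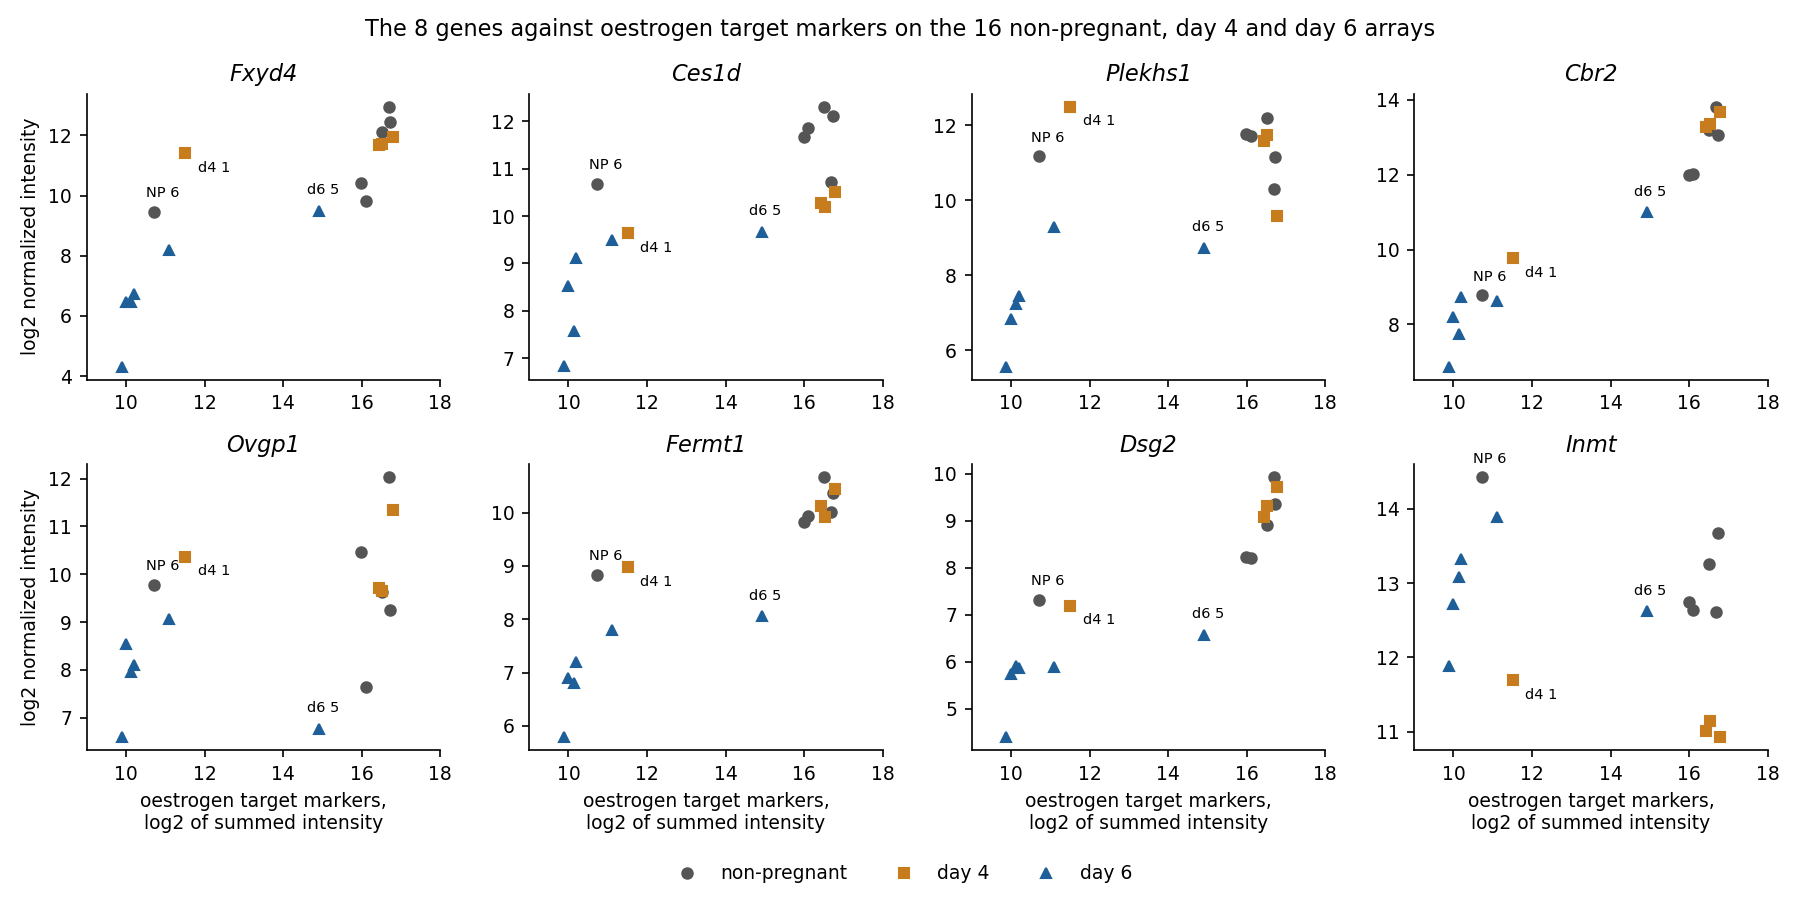
Level of each gene (log2 normalized intensity) against the log2 summed level of 10 oestrogen target markers on the 16 arrays of non-pregnant uterus (circles), day 4 (squares) and day 6 (triangles). The 3 labelled arrays are non-pregnant replicate 6, day 4 replicate 1 and day 6 replicate 5. Cbr2 was low on the first 2 of these (8.78 and 9.78) and high on the third (10.99) for their groups, as the markers were.

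As a description over the 33 arrays, which share tissue and processing, deviations from the group means ran together for Cbr2 and Dsg2 (r = 0.87), Cbr2 and Fermt1 (r = 0.83), Fxyd4 and Dsg2 (r = 0.76) and Fxyd4 and Cbr2 (r = 0.75). Plekhs1 and Ovgp1 (r = -0.08), Plekhs1 and Dsg2 (r = -0.04) and Cbr2 and Inmt (r = -0.29) did not. Over the 30 arrays without the 3 that stood apart, Cbr2 and Inmt had r = 0.53, and the first 4 pairs had 0.73, 0.66, 0.85 and 0.82 in the same order. Over the levels themselves, group means included, Dsg2 had r of 0.31 or less with each of the other 7 genes, and -0.47 with Inmt.

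Of the 8 genes, Fxyd4, Plekhs1, Inmt and Dsg2 have further probes. Their values come from a separate fit of all 21107 probes detected on at least 4 arrays, and adjusted p is over those probes. The second probe of Fxyd4 gave -4.24 at day 6 against day 4 (adjusted p = 1.72e-06) and -1.48 at day 8 against day 6 (adjusted p = 0.0836), so that the second fall was not called there. The second probe of Plekhs1 gave -3.09 at day 6 against day 4 (adjusted p = 3.34e-06). It gave -0.20 at day 10 against day 8 (adjusted p = 0.862) and -0.18 at day 11 against day 10 (adjusted p = 0.888). This dimmer probe was detected on 1 of 4 day 8 arrays and 0 of 4 day 10 arrays, so the later decline was seen on the brighter probe only. The second probe of Inmt gave 1.98, -1.36 and -2.19 for the steps to day 6, day 8 and day 10, with adjusted p of 0.000526, 0.0197 and 0.000619. The other 2 probes of Dsg2 were dim and detected on 0 of 6 day 6 arrays. They gave -1.12 and -1.32 at day 6 against day 4 (adjusted p = 0.000191 and 0.00034), and 0.40 and 0.66 at day 10 against day 8 (adjusted p = 0.294 and 0.135). The rise of Dsg2 at day 10 was therefore called on its brightest probe and not on these, which were detected on all day 11 and day 12 arrays.

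By Pearson correlation of levels over the 33 arrays, which reflects the group means above all, the 3 genes most like each of the 8 were found. For Fxyd4 they were Cldn23 (r = 0.97), Fermt1 and Dcxr, for Fermt1 they were Hoxb7 (0.97), Lzts3 and Fxyd4, and for Cbr2 they were Fut2 (0.96), Ltf and Etfbkmt. Ltf, the oestrogen target lactoferrin, had r of 0.91 with Cbr2 within groups, and 0.46 without the 3 arrays that stood apart. For Ces1d they were Unc93b1 (0.98), Cxcl16 and Aif1, for Plekhs1 Slc15a2 (0.96), Acpp and Vav1, and for Ovgp1 Tfcp2l1 (0.94), Cbs and Emp2. For Dsg2 they were Krt8 (0.97, with 0.93 within groups and 0.82 without the 3 arrays), Arhgef16 and Smagp. Krt8, a keratin of simple epithelia, averaged 11.42 in non-pregnant uterus, 8.66 at day 6, 7.88 at day 8 and 12.62 at day 12. For Inmt they were Xpc (0.93), Rsph9 and Galnt15. The 5 genes with the highest mean r over all 8 were Lzts3 (0.80), Wfdc2, Slc15a2, Cxcl16 and Rab25. They were not alike to each of the 8, since their lowest r was 0.23, 0.12, 0.01, 0.005 and 0.25 in the same order.

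Genes related by function were read from 8 lists, described by counts at day 12 against non-pregnant uterus, when 14% of all genes fell and 14.1% rose. The same test called 1.23%, 6.31%, 11.2%, 11.8% and 13.5% of all genes as lower and 1.42%, 6.53%, 10.8%, 12.4% and 13.8% as higher at days 4, 6, 8, 10 and 11 against non-pregnant uterus. Of 13 further desmosome genes 4 were measured, 1 rose and 0 fell, and it was Pkp2, a plakophilin of the desmosomal plaque (1.84, SE 0.23, adjusted p = 3e-08). Of 21 integrin adhesion genes 17 were measured, 1 rose and 4 fell, with a median of -0.23 against 0.03 for all genes. Lamb3, a laminin chain of epithelial basement membrane, fell by 2.81 (SE 0.55, adjusted p = 5.44e-05), Itgb6 fell by 2.43 (adjusted p = 0.000113), and Itgb8 was undetected at day 12 and at least 1.72-fold lower. Itgb6 and Itgb8 are integrin subunits that release active TGF-beta.

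Of 15 FXYD and sodium transport genes 11 were measured, 2 rose and 2 fell. Fxyd3, a close relative of Fxyd4, fell by 3.15 (SE 0.47, adjusted p = 1.18e-06), and Atp1b2, a beta subunit of the pump, fell by 1.59 (adjusted p = 1.02e-05). Fxyd2, the kidney gamma subunit, rose by 2.03 (SE 0.24, adjusted p = 1.33e-08).

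Of 25 carboxylesterases and lipid hydrolases 7 were measured, 3 fell and 0 rose. Ces2g, another carboxylesterase, fell by 2.50 (adjusted p = 2.03e-07), Pnpla2, the lipase that starts fat breakdown, fell by 2.41 (adjusted p = 4.18e-13), and Lpl, lipoprotein lipase, fell by 1.38 (adjusted p = 0.003). Of 22 carbonyl reductases 12 were measured, 4 fell and 2 rose. Dcxr, which reduces sugars, fell by 3.31 (SE 0.29, adjusted p = 1.76e-11), Cbr3 fell by 3.00 (adjusted p = 7.16e-11), and Akr1c18, which inactivates progesterone, rose by 3.37 (SE 0.46, adjusted p = 2.39e-07). Of 15 small-molecule methyltransferases 8 were measured, 1 fell and 1 rose. Nnmt, which methylates nicotinamide, fell by 1.33 (adjusted p = 3.65e-06), and Bhmt2, a homocysteine methyltransferase, was detected on 5 of 5 day 12 and 0 of 6 non-pregnant arrays and was at least 1.80-fold higher.

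Chitinase-like genes and mucins, to which Ovgp1 belongs, had 7 of 19 measured, of which 4 fell and 0 rose at day 12. Their median difference was -2.59, against 0.03 for all genes. At day 4, 0 of 7 had changed, and at day 6 against non-pregnant uterus 4 fell and 1 rose, with a median of -2.64. Muc4 and Muc20, membrane mucins of epithelial surfaces, were undetected at day 12 and at least 5.20-fold and 5.89-fold lower, and Chil1, a secreted chitinase-like protein, fell by 2.78 (SE 0.75, adjusted p = 0.00189). Of 28 PLEKH genes, named like Plekhs1 for their domain, 21 were measured, 6 fell and 2 rose, with a median of 0.01. The largest falls among them were Plekhg3 (-1.45, adjusted p = 1.2e-07), Plekha4 (-1.41, adjusted p = 9.53e-06) and Plekha5 (-1.40, adjusted p = 3.38e-08).

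**Figure D5:**
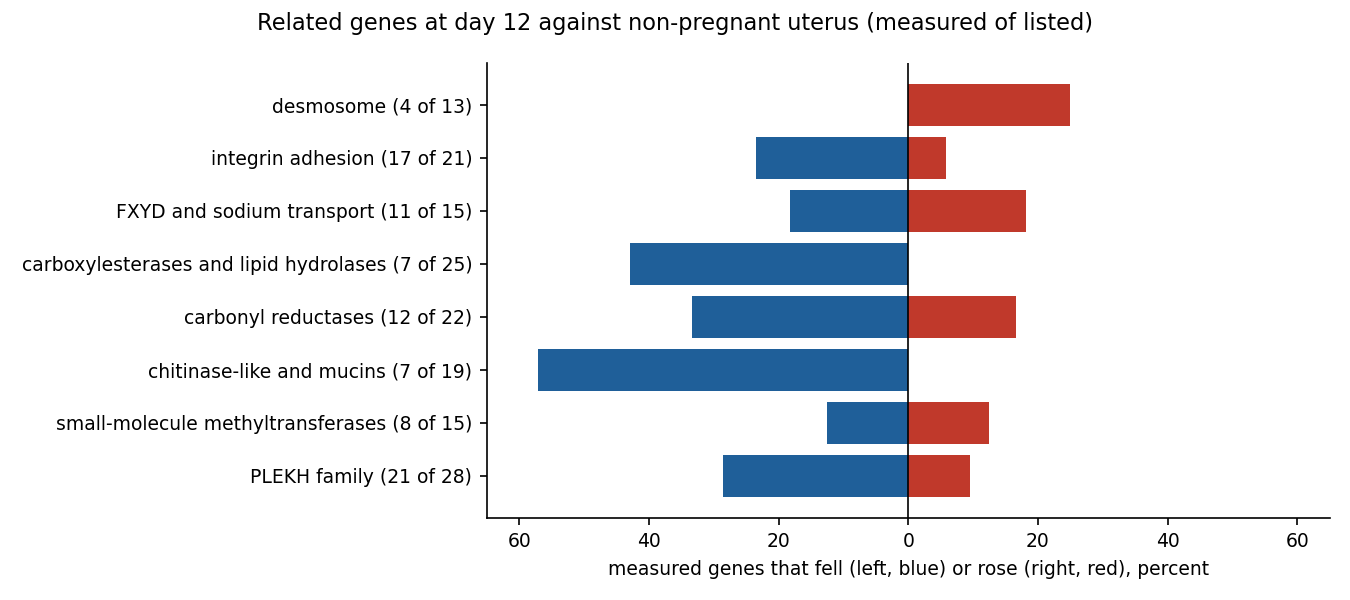
Share of the measured genes of each related list that fell (blue, left) or rose (red, right) at day 12 against non-pregnant uterus, in percent, with the number measured of those listed. Chitinase-like genes and mucins had 4 of 7 lower, and desmosome genes had 1 of 4 higher and 0 lower.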

How the data were processed

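Total RNA of 33 uterine samples was measured on single-colour Illumina bead arrays. The deposited table holds, per probe and array, an intensity on a linear scale and a detection p-value deposited by the authors, and the authors also deposited a matrix of normalized values, taken to be log2 intensities. Scanner software and the authors' normalization are not given in the sources used here. Trizol extraction and biotinylated cRNA are stated per the labels.

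Intensities were background corrected with limma's nec (offset 16), which reads the negative controls from the detection p-values, then quantile normalized and put on log2. The filter kept 21107 probes, those detected (p under 0.01) on 4 or more arrays, and of several named probes of a gene the one with the highest mean stood for it. limma 3.58.1 in R 4.3.3 (statmod 1.5.0) fitted 1 mean per group to all 33 arrays, with 26 residual and 4.43 prior degrees of freedom and Benjamini-Hochberg adjustment over 10412 genes. For a gene undetected throughout a group, values were raised to each array's lowest detected signal to give a bound. The procedure was tested on simulated data. Depth, the number of detected probes, and the number of arrays limit precision. Plots used Python 3.11.15 with matplotlib 3.10.9 and pandas 2.3.3.

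The 8 genes, the lists and the tests were chosen with earlier results of these data known. Genes other than the 8 are named by rule: up to 3 per list with the largest change at day 12 among those called, the 3 most alike each gene and the most alike over all 8 by correlation, and a few defining markers. Replicate numbers differ between the deposited tables for 16 arrays, always within a group, and those of the intensity table were used. Deviations of same-numbered arrays from their group means were correlated, and in 0 of 21 pairs of groups were all correlations over 0.1 (range -0.35 to 0.43). As the numbers are uncertain and a single array can break this rule, it cannot exclude a shared batch or pairing. Alternatives were no background correction, another offset, cyclic loess, median scaling, the authors' matrix, other filters and probe rules, only the groups compared, array weights, a replicate block, other fold minima and each array left out. Leaving out the 3 arrays that stood apart on oestrogen target genes, averaging near-identical arrays and taking the dimmest probe were chosen after seeing the data. Slides are not given in the sources used here, so they could not enter the fit.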

Additional observations from a re-analysis of the deposited data

Results flagged for a closer look

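Among 56 sets of arrays, the 8 genes in each of 7 groups, 2 held an array whose gap to the nearest other array was large for the range of its group, and chance alone flags about 1 in 20. Both concern Cbr2. On day 4 replicate 1 it had 9.78, where the nearest of the other day 4 arrays had 13.27 and the farthest 13.68. On non-pregnant replicate 6 it had 8.78, where the nearest other non-pregnant array had 11.98 and the farthest 13.82. Both arrays detected the probe, and both were among the 3 arrays that stood apart on oestrogen target markers.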

How the results depend on the processing

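Of the 8 genes, 8 changed at day 6 against day 4 (6 at a 4-fold minimum), 3 at day 8 against day 6 (2 to 4 over all alternatives), 3 at day 10 against day 8, and 0 at day 12 against day 11, where no alternative run gave another count. The day 10 count was 1 at a 4-fold minimum, and 2 to 3 with single arrays left out, where the lost call was that of Ces1d. At day 11 against day 10 the count was 0, but 3 (Ces1d, Plekhs1 and Cbr2) with only the groups compared and with array weights, and 1 without the 2 arrays with fewest detected probes and without the 3 arrays that stood apart. With array weights, Inmt at day 6 minus non-pregnant turned to 0.34, against -0.30. Median differences of the 8 genes from non-pregnant uterus were smaller without background correction (-3.13 at day 8, -3.80 at day 10, -3.93 at day 11 and -3.84 at day 12), with the series matrix values (-3.13, -3.77, -3.92 and -3.83), with an offset of 50 (-4.59 at day 11 and -4.62 at day 12), with the dimmest probe (-4.44 and -4.30), and with detection on at least 17 arrays (-4.76 at day 12). Genes of the 8 related lists called against non-pregnant uterus numbered 2, 17, 30, 33, 29 and 33 at days 4, 6, 8, 10, 11 and 12. They numbered, alike for the series matrix and for uncorrected intensities, 0, 16, 20, 18 and 20 at days 4, 8, 10, 11 and 12. At a 1.5-fold minimum they numbered 5, 30, 48, 47 and 51 at days 4, 6, 8, 11 and 12, and at a 4-fold minimum 0, 11, 12, 11, 14 and 14. At day 4 they numbered 0 with an offset of 50, 1 with median scaling, the mean of all probes, the dimmest probe and only the groups compared, 10 with array weights, 4 without the 3 arrays that stood apart, 5 without the 2 dim arrays and 2 to 5 with single arrays left out. The replicate block gave 4 there and moved no other count by over 1.5 times. Median scaling moved the median of all genes to 0.15 at day 4 minus non-pregnant and to -0.16 at day 6 minus day 4. Differences of single genes from non-pregnant uterus moved by more than the spread of their arrays in 78 cases and by less in 1139. Dim signals limit what is shown: an undetected gene has only a bound, and background correction sets how far below a bright group it lies.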
